A study of Mus musculus with 6 samples.

Results

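The genes described here are those of cellular iron uptake and storage, heme breakdown and blood globin: Tfrc, Fth1, Ftl1, Hmox1 and Hba-a1. They were found as the probes whose platform annotation gave exactly 1 gene symbol and that symbol was one of these 5. That gave 22 probes of the 6609 with exactly 1 symbol, and 5 genes of 3939. Tfrc had 2 probes, Fth1 7, Ftl1 4, Hmox1 1 and Hba-a1 8. Transcripts of mouse skeletal muscle were measured on 6 arrays with 2 channels. The sham group was operated on and carried a pacer that stayed inactive. In the paced groups the implanted pacer stimulated the muscle for 3 h, and tissue was collected at 0, 1, 3, 8 or 24 h from the end of stimulation. Each group had 1 array, and on each array the sample was set against control muscle, called Pre. Sham muscle was collected at the time matching 0 h, so a difference from sham at a later time also holds the elapsed time. Strain, age, the muscle used and the number of mice in each RNA are not stated in the sources used here.

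Values are log2 ratios to Pre, so that 1 is 2-fold above Pre and -1 is 2-fold below it. Each ratio was read as sample over Pre, because Pre is labelled the reference. No source used here says which dye held which RNA, and every direction rests on that reading. No signal levels were given, so the level of one gene cannot be set against that of another, and the muscle identity of the samples cannot be checked from levels. Groups had no replicate arrays, so no test was run. The one spread available is that between probes of the same gene on the same array (probe SD), which holds no variation between animals. The spread of all probes differed between arrays, with a robust SD from 0.176 at 1 h to 0.495 in sham. Between 87.3% and 95.2% of probes were counted as measured on each array. Exact zeros, values shared within a run of probes and, on the sham array, 485 empty cells were left out. Of 13872 probes, zeros numbered 201 in sham, and 1762, 1260, 1673, 665 and 1699 at 0, 1, 3, 8 and 24 h. In RNA from whole muscle, fewer cells of a type and less RNA per cell cannot be told apart.

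Iron enters most cells bound to transferrin, which is taken up by the transferrin receptor, the product of Tfrc. Iron that is not used at once is stored in ferritin, a shell built of heavy chains (Fth1), which oxidise iron, and light chains (Ftl1), which favour mineral formation inside the shell. Iron regulatory proteins bind hairpins in these mRNAs when iron is scarce: they stabilise Tfrc mRNA and block translation of ferritin mRNA. Heme oxygenase 1 (Hmox1) opens the heme ring and frees its iron, and its gene is held down by Bach1 and turned on by Nrf2. Hba-a1 encodes the alpha chain of adult hemoglobin, a product of red blood cells. In muscle, iron serves myoglobin and the respiratory chain.

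As gene means, Tfrc lay below Pre on all 6 arrays, and Fth1 and Ftl1 lay above it, as did Hmox1 on its 1 probe. The promoters of the receptor gene and of both ferritin genes are shown. Each is the 250 bases before an annotated transcript start in RefSeq, build GRCm38.p6, 5′ to 3′ on the gene's strand. The Tfrc stretch, before the first of 2 listed starts, lies at chr16:32608646-32608895 on the plus strand. The Fth1 stretch, before the second of 2 starts and so downstream of the first, lies at chr19:9982396-9982645 on the plus strand. The Ftl1 stretch lies at chr7:45459887-45460136 on the minus strand. Capitals mark matches to any of 4 motifs. Of the 5 members, 4 had an entry in the promoter table; Hmox1 is named only.
Tfrc: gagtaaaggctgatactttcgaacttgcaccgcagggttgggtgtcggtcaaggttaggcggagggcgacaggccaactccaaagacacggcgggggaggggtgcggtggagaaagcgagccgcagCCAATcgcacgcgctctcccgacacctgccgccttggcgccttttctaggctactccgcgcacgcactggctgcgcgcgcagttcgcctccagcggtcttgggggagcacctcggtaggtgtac
Fth1: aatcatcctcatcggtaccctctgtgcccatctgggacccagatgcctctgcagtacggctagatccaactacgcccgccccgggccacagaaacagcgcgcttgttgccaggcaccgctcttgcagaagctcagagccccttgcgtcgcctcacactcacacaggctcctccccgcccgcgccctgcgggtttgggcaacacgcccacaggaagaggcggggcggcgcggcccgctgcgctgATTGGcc
Ftl1: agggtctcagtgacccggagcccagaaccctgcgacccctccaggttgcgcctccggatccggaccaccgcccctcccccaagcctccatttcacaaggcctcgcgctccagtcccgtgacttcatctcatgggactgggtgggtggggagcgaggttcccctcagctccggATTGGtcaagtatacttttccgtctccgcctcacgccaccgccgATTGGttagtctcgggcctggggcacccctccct
The motifs were searched as letters on both strands in these windows and, for comparison, in the 250 bases before all 32851 listed starts. ACGTG, the core of the hypoxia response element, was found 1 time in the window before the second Tfrc start, where it spans the first start, and in 16.6% of all windows. CCAAT, the box bound by NF-Y, reads ATTGG on the other strand and was found in 33.8% of all windows. It was found 1 time in each of the Tfrc and Fth1 stretches shown, 2 times in that of Ftl1 and 1 time before Hba-a1. The windows before the second Tfrc start and the first Fth1 start, which are not shown, held 0 matches to it. This motif was added to the search after the sequences were seen. TGACNNNGC, the core of the antioxidant response element, matched none of the member windows and 10.2% of all windows. GATAAG, a site of GATA factors, was found 1 time before Hba-a1 and in 6.55% of all windows. None of these motifs overlapped another in the stretches shown. A match is a run of letters, and these arrays hold no measure of factor binding.

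**Figure D1:**
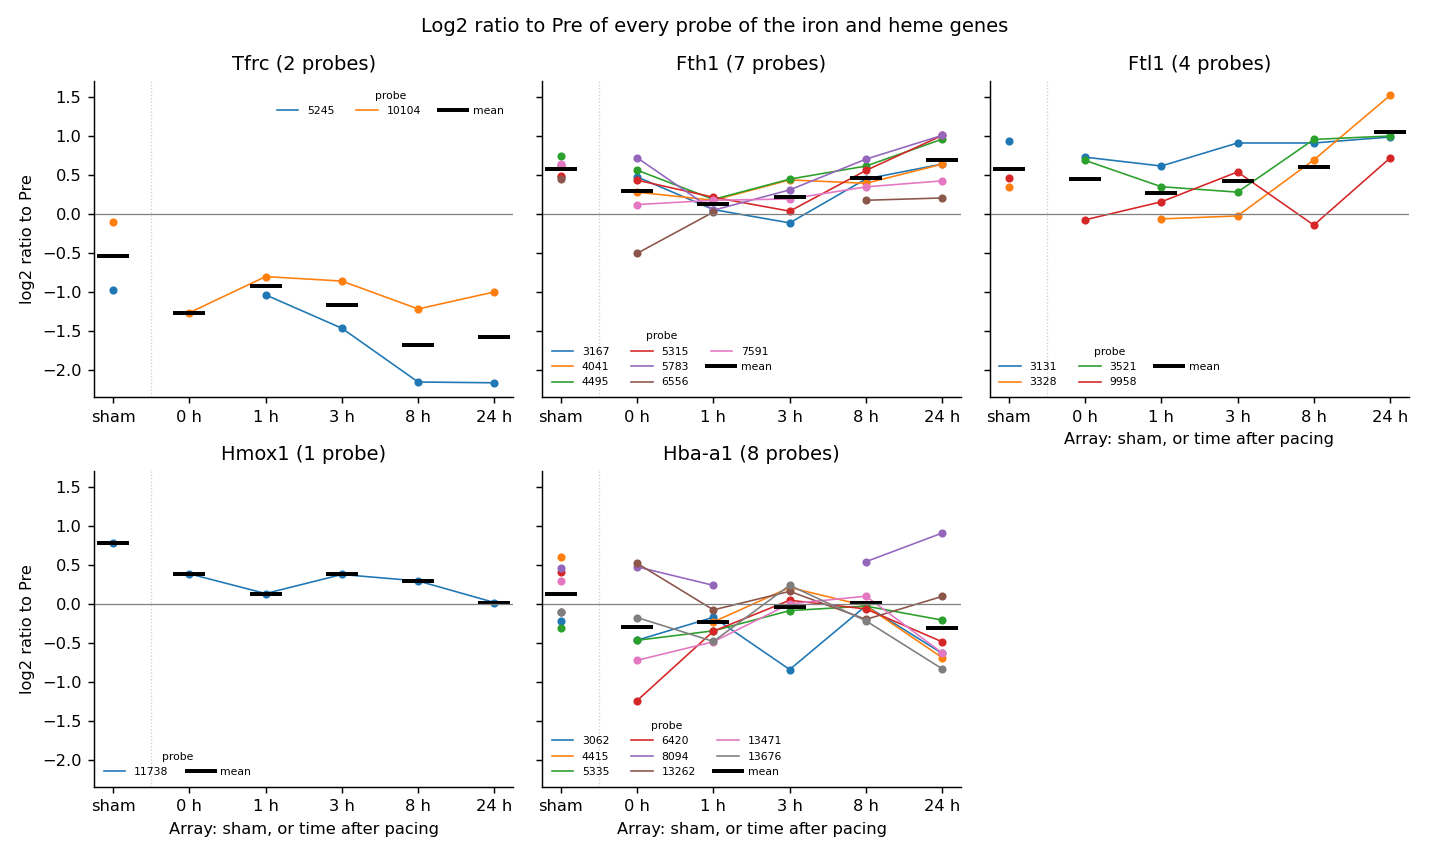
Log2 ratio to Pre (vertical axis) of every probe of Tfrc, Fth1, Ftl1, Hmox1 and Hba-a1 in sham muscle and 0 h to 24 h after pacing (horizontal axis). Points are probes, lines join the paced arrays of a probe, black bars are gene means, and a gap is a value treated as missing; both Tfrc probes lie below 0 wherever they were measured, while 5 of 7 Fth1 probes reach their highest value at 24 h.

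Tfrc, the iron uptake receptor gene, was below Pre on all 6 arrays, by both of its probes wherever they were measured; 15.1% of all genes were below Pre on all 6. Its mean log2 ratio was -0.54 in sham, and -1.27, -0.92, -1.16, -1.69 and -1.58 at 0, 1, 3, 8 and 24 h. These correspond to 1.46-fold below Pre in sham, and to 2.40-fold, 1.89-fold, 2.24-fold, 3.22-fold and 2.99-fold below Pre at the 5 times after pacing. Among the 3180 genes with a value on all 6 arrays, Tfrc ranked 384 from the lowest in sham, but 9, 5, 34, 2 and 11 at 0, 1, 3, 8 and 24 h. Ranks within an array do not change when the array is rescaled. Only 5 of the 3180 genes (0.157%) were 2-fold below Pre on 4 or more of the 5 paced arrays, and Tfrc was among them, with 2310065F04Rik, Amd2, Grb14 and Prkag3. This place rests on 1 probe at 0 h: with zeros kept Tfrc passed on 3 paced arrays, and on the probe measured on all 6 arrays it passed on 2, so both alternatives end it.

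The probes of Tfrc differed in size. Probe 5245 stood at -0.98 in sham, and -1.03, -1.46, -2.15 and -2.16 at 1, 3, 8 and 24 h, and its cell at 0 h held an exact zero that was treated as missing. Probe 10104 stood at -0.11 in sham, and -1.27, -0.80, -0.86, -1.22 and -0.997 at 0, 1, 3, 8 and 24 h. Thus the first probe was already nearly 2-fold below Pre in sham and was lowest at 8 h and 24 h, whereas the second was near Pre in sham and lowest at 0 h. The probe SD of the ratio was 0.62 in sham, and 0.17, 0.43, 0.66 and 0.83 at 1, 3, 8 and 24 h. In the order of the means (8 h, 24 h, 0 h, 3 h, 1 h, sham) each of the 5 steps between neighbours, 0.10 to 0.38, was smaller than the larger probe SD of the arrays it joins, so the order of neighbouring times is not settled.

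Against sham, Tfrc was lower at all 5 times, and its probes lay closer together in this difference than in the ratio at 3, 8 and 24 h, though not at 1 h. At 8 h the log2 difference was -1.14 (2.21-fold lower), with probe values of -1.18 and -1.11. At 24 h it was -1.04 (2.06-fold lower), with -1.19 and -0.89. At 3 h it was -0.62, with -0.49 and -0.75, and at 1 h -0.38, with -0.06 and -0.70. Both probes were thus lower than sham at each of these 4 times, while the difference at 1 h rested almost wholly on probe 10104. At 0 h the gene means differed by -0.72, but this sets 1 probe against the mean of 2, and on probe 10104, the one measured on both arrays, the difference was -1.16 (2.23-fold lower). With the zero of probe 5245 kept as a value, the difference at 0 h was -0.09 and the ratio to Pre -0.63, so the size at 0 h depends on what that zero stands for.

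A gene was called at 2-fold, a log2 value of 1 or more in size. Against sham, 1 of the 5 members, Tfrc, was called lower at 8 h, beside 1.57% of all genes, and the same 1 was called lower at 24 h, beside 2.80%. No member was called lower at 0 h, 1 h or 3 h, where 2.86%, 0.535% and 0.818% of all genes were, and none was called higher at any time, where 3.11%, 0.786%, 1.32%, 1.67% and 3.02% of all genes were at 0, 1, 3, 8 and 24 h. Against Pre, Tfrc was the 1 member called lower at 0, 3, 8 and 24 h, beside 0.723%, 2.14%, 0.723% and 1.51% of all genes. At 1 h its ratio of -0.92 missed the threshold that 0.0943% of genes passed in the lower direction. Ftl1 was the 1 member called higher than Pre, at 24 h, beside 3.90% of all genes. At 0, 1, 3 and 8 h 0 members were called higher than Pre, beside 1.45%, 0.755%, 2.83% and 1.64%. No member was called against Pre in sham, where 1.82% of genes were called higher and 1.51% lower. Tfrc met both conditions, 2-fold below sham and below Pre, at 8 h and at 24 h, as did 0.283% and 0.818% of all genes. All comparisons with sham use the same sham array, and all ratios the same Pre RNA, so they do not check one another.

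The Tfrc values depended on scaling. When every array was divided by its own spread and brought to a common one, the log2 difference from sham was -1.12, -1.42, -0.52, -2.04 and -0.99 at 0, 1, 3, 8 and 24 h. The direction was the same at every time, but 2-fold was then passed at 0, 1 and 8 h, and missed narrowly at 24 h.

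**Figure D2:**
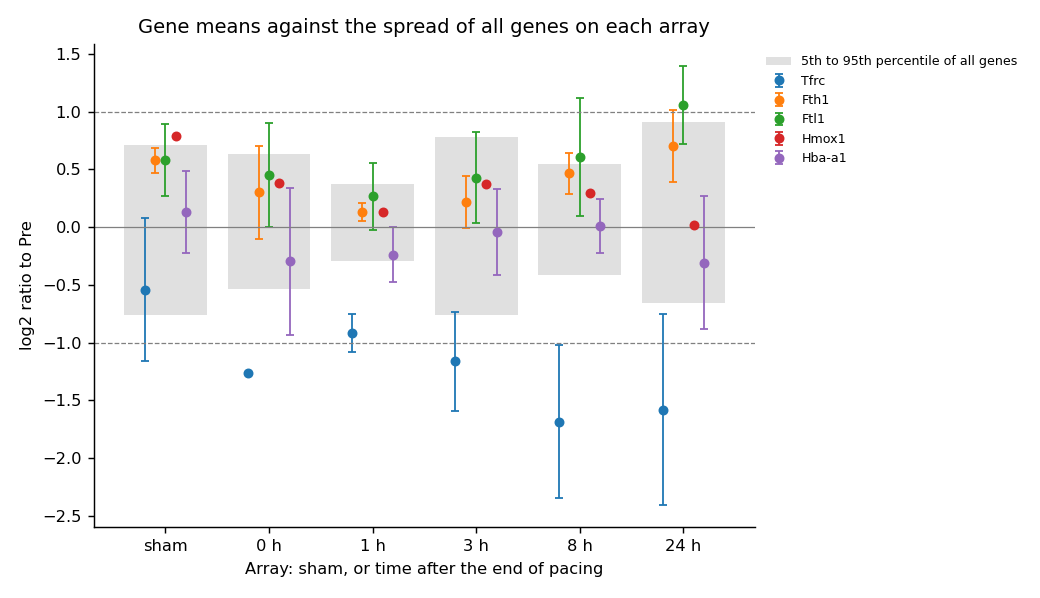
Mean log2 ratio to Pre (vertical axis) of each member in sham muscle and at 0 h to 24 h after pacing (horizontal axis); error bars are probe SD where a gene had 2 or more measured probes, grey bars span the 5th to 95th percentile of 3180 genes, and dashed lines mark 2-fold. Tfrc lies below the grey bar on all 5 paced arrays and inside it in sham.

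The ferritin genes stood above Pre on all 6 arrays as gene means, as did 16.5% of all genes. Fth1, the heavy chain, had a mean log2 ratio of 0.58 in sham, and 0.30, 0.13, 0.22, 0.47 and 0.70 at 0, 1, 3, 8 and 24 h. Its 7 probes were all above Pre in sham, at 1 h, at 8 h and at 24 h, and their SD was 0.11 in sham, and 0.40, 0.08, 0.23, 0.18 and 0.31 at 0, 1, 3, 8 and 24 h. The sham ratio thus lay between those at 8 h and 24 h, and the 1 h ratio was nearest to Pre. At its highest, 24 h, Fth1 was 1.63-fold above Pre, and its steps between neighbouring levels, at most 0.17, were all smaller than the larger probe SD. On the scaled arrays the lowest level was at 3 h (0.17) and the highest at 8 h (0.67), so neither extreme was the same in both.

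Probe by probe, the Fth1 values at 24 h were 1.01 on probes 5315 and 5783, 0.96 on probe 4495, 0.64 on probes 3167 and 4041, 0.43 on probe 7591 and 0.21 on probe 6556. At 1 h the same probes lay between 0.03 and 0.22. All 7 probes were thus higher at 24 h than at 1 h, with a mean difference of 0.57 (1.49-fold; probe SD 0.29, range 0.18 to 0.96), in a comparison chosen after the values were seen. It placed Fth1 at rank 236 of 3180 from the highest. Of all genes, 51.4% were higher at 24 h than at 1 h, and 1.48% were 2-fold higher, a threshold that Fth1 did not reach. After scaling to a common spread the Fth1 difference was 0.35. Unlike a rank within an array, the rank of this difference can change with scaling, and none was taken on the scaled arrays. Probe 6556 stood apart at 0 h, at -0.50 against 0.12 to 0.72 on the other 6 probes, and without it the mean at 0 h was 0.44. Both probes that were lower at 24 h than in sham, 6556 and 7591, were highest in sham, and the other 5 were highest at 24 h.

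Against sham, Fth1 was lower at 1 h on 7 of 7 probes, with a mean log2 difference of -0.45 (1.36-fold lower; probe SD 0.10, range -0.57 to -0.27). At 3 h it was lower on 6 of 6 probes measured on both arrays, at -0.38 (probe SD 0.15). At 0 h and 8 h, 5 of 7 probes were lower, with means of -0.28 and -0.11, and at 24 h 5 of 7 were higher, with a mean of 0.12. Of all genes, 47.2% were below sham at 1 h and 46.9% at 3 h. After scaling to a common spread the difference at 1 h was -0.15, and the one at 8 h turned to 0.26.

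Ftl1, the light chain, had mean log2 ratios of 0.58 in sham, and 0.45, 0.27, 0.43, 0.61 and 1.06 at 0, 1, 3, 8 and 24 h. The probe SD was between 0.29 and 0.51 over the 6 arrays, wider than for Fth1 on each of them. At 24 h the 4 probes stood at 0.99 (probe 3131), 1.53 (probe 3328), 1.00 (probe 3521) and 0.72 (probe 9958), so that the gene mean was 2.09-fold above Pre. Each of the 4 had its highest value at 24 h. Ftl1 ranked 106 of 3180 from the highest on that array, with 124 genes called higher. The call was narrow, since the median of the probes was 0.998, the value after scaling 0.92 and the mean of the probes measured on all 6 arrays 0.86.

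The light chain probes had unlike courses before 24 h. Probe 3131 stayed between 0.62 and 0.99 on all 6 arrays. Probe 3328 stood at 0.35 in sham, and -0.06, -0.02 and 0.70 at 1, 3 and 8 h, with a zero treated as missing at 0 h. Probe 9958 was below Pre at 0 h and 8 h, at -0.07 and -0.14, and above it otherwise. Probe 3521 was at 0.28 or more on the 5 paced arrays, and its sham cell held a zero. All 4 were higher at 24 h than at 1 h, by 0.37 to 1.59, with a mean of 0.79 (1.73-fold; probe SD 0.54), which placed Ftl1 at rank 124 of 3180. After scaling to a common spread this difference was 0.39, and its rank was not taken again.

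Compared with sham, Ftl1 was 0.48 higher at 24 h as a difference of log2 gene means (1.39-fold), and higher on 3 of 3 probes measured on both arrays, by 0.05 to 1.18. Probe 3328 alone passed 2-fold. At 1 h it was lower on 3 of 3 such probes, by a mean of -0.34 (probe SD 0.06), but scaling to a common spread turned the difference of gene means at 1 h to 0.12, and at 0 h to 0.13. At 3 h the gene means differed by -0.15, with 2 of 3 shared probes lower. At 8 h the gene means differed by 0.03 and the shared probes by -0.09. No direction against sham can therefore be given for Ftl1 at 0 h, 1 h or 8 h.

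As means of the measured probes, light and heavy chain both stood at 0.58 relative to Pre in sham. On the paced arrays the light chain mean was the higher by 0.15, 0.14, 0.21, 0.14 and 0.36 at 0, 1, 3, 8 and 24 h, each less than the probe SD of Ftl1 on that array except at 24 h, where the SD was 0.34. These means rest on different probes on different arrays. On the probes measured on all 6 arrays, the light chain minus heavy chain value was 0.10 in sham, and -0.11, 0.24, 0.51, -0.13 and 0.07 at 0, 1, 3, 8 and 24 h, and with zeros kept it was -0.14 in sham. No order of the chains can therefore be given in sham, at 0 h or at 8 h, and the size of the gap at 24 h depends on the probes. Ferritin genes have processed pseudogenes in mouse, so a probe may also read related transcripts.

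**Figure D3:**
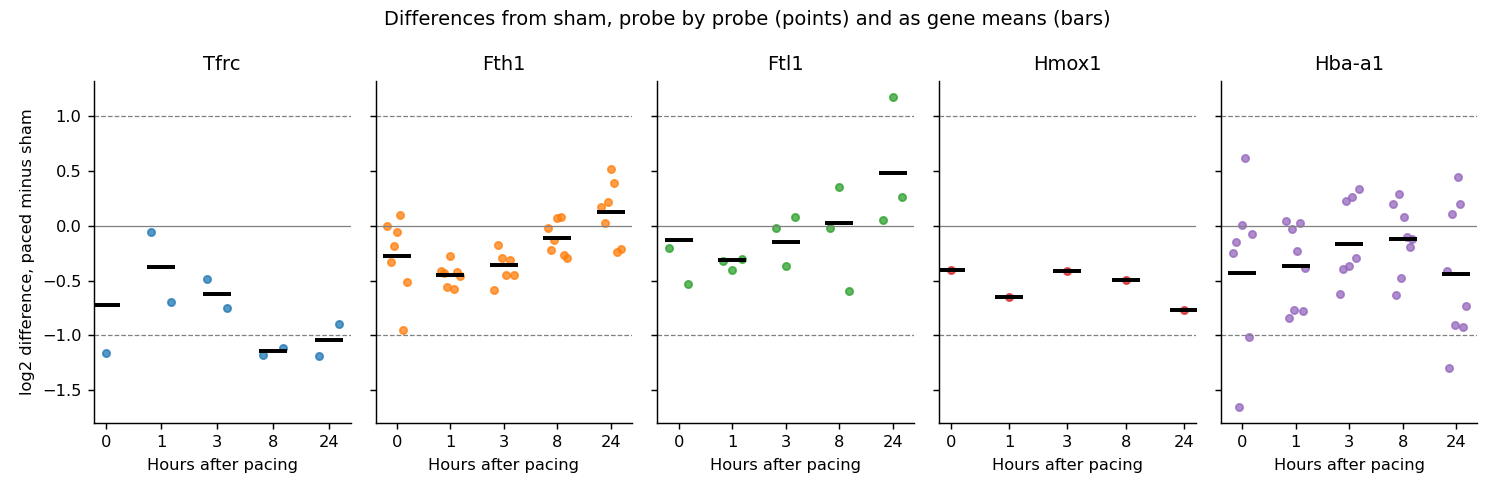
Log2 difference between each paced array and sham (vertical axis) for each member at 0 h to 24 h after pacing (horizontal axis, in order and not to scale). Points are probes measured on both arrays, black bars are differences of gene means, and dashed lines mark 2-fold; at 0 h the single Tfrc point, -1.16, lies below the bar at -0.72, because the sham mean holds 1 probe more.

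Hmox1, the inducible heme oxygenase, was measured by 1 probe, 11738, so it has no spread. Its log2 ratio to Pre was 0.79 in sham, and 0.39, 0.13, 0.38, 0.29 and 0.02 at 0, 1, 3, 8 and 24 h. The sham value was the highest of the 6, at rank 118 of 3180 from the top, and the 24 h value was level with Pre, at rank 1566. Every paced array was therefore lower than sham, by log2 differences of -0.40, -0.65, -0.41, -0.49 and -0.77 at 0, 1, 3, 8 and 24 h. The last is 1.70-fold lower, and none reached 2-fold. The direction held after scaling to a common spread, with differences from -0.53 at 24 h to -0.09 at 0 h. All 5 differences share the sham value, which a second probe does not check.

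The alpha globin gene Hba-a1 lay close to Pre as a mean of 8 probes, with log2 ratios of 0.13 in sham, and -0.30, -0.24, -0.04, 0.01 and -0.31 at 0, 1, 3, 8 and 24 h. The probe SD was 0.35 in sham, and 0.63, 0.24, 0.37, 0.24 and 0.58 at 0, 1, 3, 8 and 24 h, so the mean was within 1 probe SD of Pre on every array, by a narrow margin at 1 h. Probes below Pre numbered 4 of 8 in sham, and 5 of 7, 7 of 8, 2 of 7, 6 of 8 and 6 of 8 at 0, 1, 3, 8 and 24 h. Against sham the gene means were lower at all 5 times, with log2 differences of -0.43, -0.37, -0.17, -0.12 and -0.44 at 0, 1, 3, 8 and 24 h. Of the probes measured on both arrays, 5 of 7, 6 of 8, 4 of 7, 5 of 8 and 5 of 8 were lower than sham at those times.

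The globin probes split. Probe 8094 was above Pre on each of its 5 measured arrays, at 0.46 in sham, and 0.48, 0.24, 0.54 and 0.91 at 0, 1, 8 and 24 h. On the 24 h array the other 7 probes lay between -0.83 and 0.10, with a mean of -0.48. Probes 3062 and 5335 were the opposite case, below Pre on 6 of 6 arrays. Probe 6420 held the widest single value, -1.24 at 0 h against 0.41 in sham. Hba-a1 has a near-identical copy, Hba-a2, and a probe may not tell them apart. The 1 probe annotated to Hba-a2 stood at 0.30 in sham, and 0.35, 0.23, 0.13 and 0.28 at 0, 1, 8 and 24 h, above Pre wherever measured, as was probe 8094 and unlike the mean of the Hba-a1 probes.

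Other red blood cell genes gave no common direction. Of 17 listed markers 5 had a probe, and their median log2 ratio to Pre was 0.14 in sham, and 0.06, 0.01, -0.05, -0.02 and -0.22 at 0, 1, 3, 8 and 24 h, over 4 or 5 measured genes. Rhd, a blood group antigen gene with 1 probe, had the lowest mean over the paced arrays and varied most. It stood at -1.52 in sham, and 0.37, -0.83, -0.98, -0.24 and -0.56 at 0, 1, 3, 8 and 24 h. Rhd was thus 2-fold above sham at 0 h and 8 h (at 8 h only 0.72 after scaling). Sptb, the erythroid spectrin gene, had the highest mean of those with all 5 paced values and lay between -0.02 and 0.21 on the 6 arrays. The listed beta globin genes and Alas2 were among the markers without a measured probe annotated to exactly 1 symbol. Of 18 macrophage and leukocyte markers 4 had a probe, with medians from -0.06 at 24 h to 0.12 at 0 h and 0 of them 2-fold from Pre on any array; the furthest, Ptprc, a leukocyte surface phosphatase, was at 0.93 in sham. Among the others, Lyz2 lay between -0.16 and 0.12, and C1qb between 0.00 and 0.50. Their part in the ferritin and Hmox1 values was not tested. The 12 skeletal muscle markers all had probes, and their median ratio to Pre lay between -0.20 and -0.03 on the 6 arrays. The calcium store gene Casq1 had the lowest mean over the paced arrays, at -1.43 at 24 h (probe SD 0.84, n = 9 probes), which is -1.04 against sham, or -0.97 after scaling. The troponin gene Tnni2 had the highest, at 0.23 at 24 h (probe SD 0.35, n = 10 probes).

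**Figure D4:**
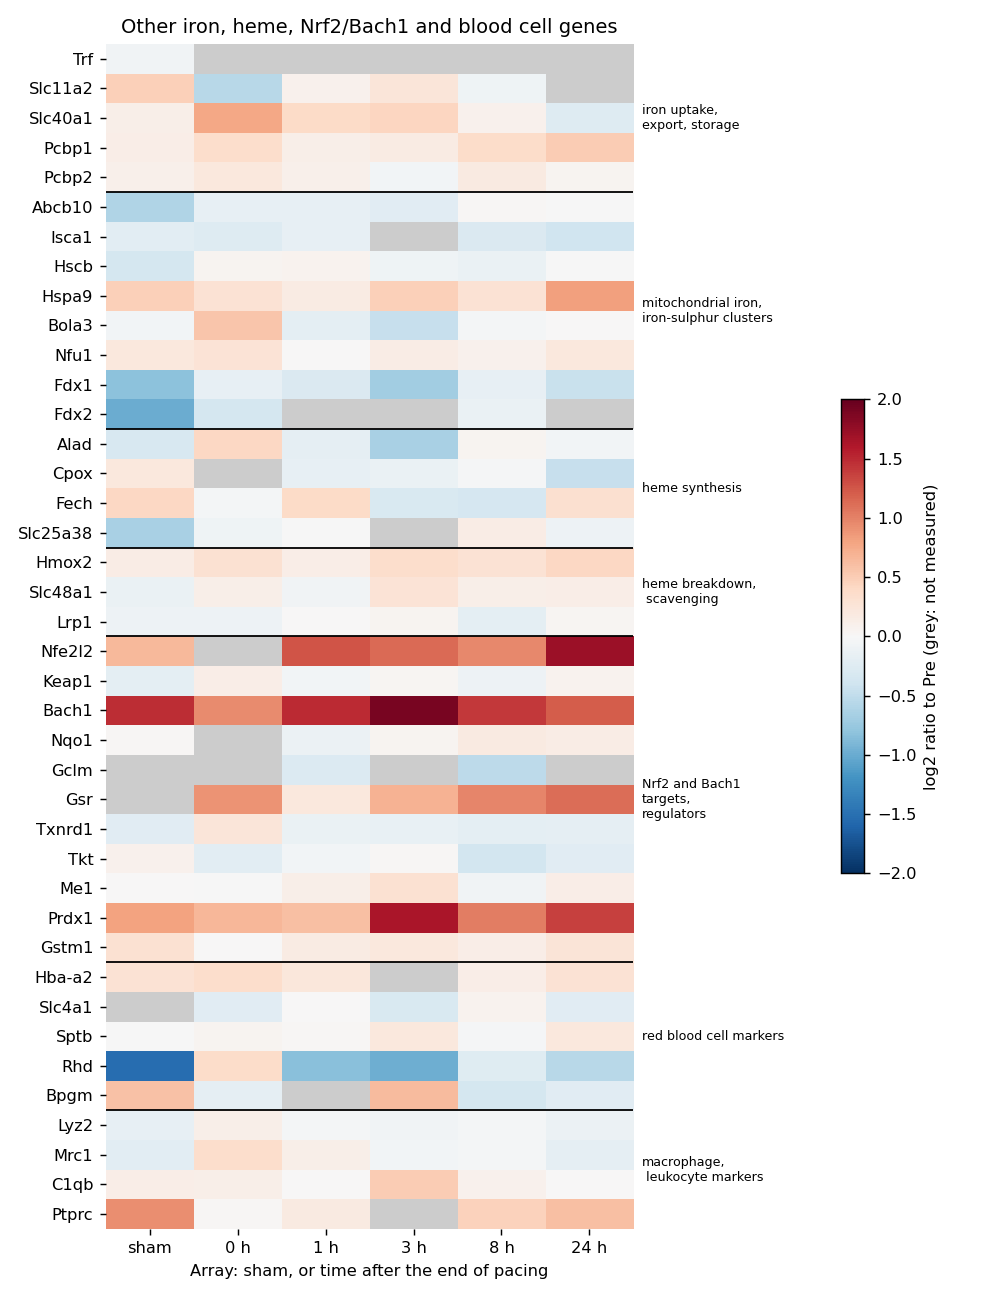
Log2 ratio to Pre (colour) of the other iron, heme, Nrf2/Bach1 target and regulator, red cell and leukocyte genes (rows, grouped by list) in sham muscle and at 0 h to 24 h after pacing (columns). Grey cells were not measured. Most of the 40 genes lie near 0, and the ratios 2-fold or more above Pre are those of Bach1, Nfe2l2, Prdx1 and Gsr.

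The rest of the iron and heme machinery was thinly covered and mostly near Pre. Of 28 genes of iron uptake, transport, export and storage control, 5 had a measured probe, and 0 were 2-fold from Pre on any array. Pcbp1, an iron chaperone that delivers iron to ferritin, had the highest mean of those with all 5 paced values, with log2 ratios of 0.35, 0.12, 0.16, 0.37 and 0.50 at 0, 1, 3, 8 and 24 h and 0.14 in sham. Its 3 probes had an SD of 0.38 at 24 h. Its relative Pcbp2 had the lowest such mean and lay between -0.05 and 0.21 on the 6 arrays. Slc11a2, the DMT1 iron importer, was the 1 gene of the list 2-fold from sham, at -1.03 at 0 h, where it stood at -0.55 relative to Pre, against 0.47 in sham, and Slc40a1, the iron exporter ferroportin, stood at 0.77 at 0 h and -0.26 at 24 h, against 0.12 in sham. Both have 1 probe and were singled out after their values were seen.

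For mitochondrial iron and iron-sulphur cluster assembly, 8 of 21 listed genes had a probe and 0 were 2-fold from Pre or from sham. Hspa9, the mitochondrial Hsp70 that serves cluster transfer, had the highest mean over the paced arrays, at 0.82 at 24 h (probe SD 0.11, n = 3 probes) and 0.48 in sham (probe SD 0.65, n = 5). These 2 means rest on different probes. Their difference was 0.34, but it was 0.10 on the probes measured on both arrays and 0.01 with zeros kept. Fdx1, a ferredoxin, had the lowest mean over the paced arrays. It stood at -0.17, -0.28, -0.69, -0.16 and -0.44 at 0, 1, 3, 8 and 24 h, against -0.82 in sham (probe SD 0.01, n = 2). The values at 1, 3 and 24 h rest on 1 probe, and the probe SD at 8 h was 0.15 (n = 2). Of 11 heme synthesis genes, 4 had a probe and 0 were called against either reference. Fech, which inserts iron into heme, lay between -0.34 and 0.42, and Alad, an early enzyme of the pathway, between -0.66 and 0.41, the lowest being the mean of probes at -1.38 and 0.07. Of 16 genes of heme breakdown and transport, 3 had a probe and 0 were called. Hmox2, the constitutive heme oxygenase, was at 0.13 to 0.41 on all 6 arrays, and Lrp1, the hemopexin receptor, at -0.19 to 0.06.

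The list of Nrf2 and Bach1 targets and regulators held the highest ratios of all the lists. Of 22 listed genes 11 had a measured value. The number 2-fold above Pre was 1 of 9 in sham, and 0 of 8, 2 of 11, 3 of 10, 2 of 11 and 4 of 10 at 0, 1, 3, 8 and 24 h, and 0 were 2-fold below. Of all genes, 1.82% were 2-fold above Pre in sham, and 1.45%, 0.755%, 2.83%, 1.64% and 3.90% at 0, 1, 3, 8 and 24 h. The calls came from the regulators Bach1 and Nfe2l2 and the targets Prdx1 and Gsr, the last only at 24 h (1.12, 1 probe). The targets Nqo1, Txnrd1, Me1 and Gstm1 lay between -0.23 and 0.31 wherever measured. Gclm stood at -0.27 at 1 h and -0.52 at 8 h. Gsr and these uncalled targets were added after the values were seen. The list medians were 0.09 in sham, and 0.19, 0.12, 0.26, 0.14 and 0.20 at 0, 1, 3, 8 and 24 h, beside medians of all genes between -0.01 and 0.01. Bach1, the heme-sensing repressor of Hmox1, stood at 1.47 in sham, and 0.94, 1.49, 1.90, 1.41 and 1.21 at 0, 1, 3, 8 and 24 h on 1 probe. Its sham value lay within the range of the paced ones, but after scaling Bach1 was 1.89 higher than sham at 1 h. Nfe2l2, which encodes Nrf2, stood at 0.65 in sham, and 1.25, 1.14, 0.95 and 1.71 at 1, 3, 8 and 24 h on 1 probe, with no value at 0 h. It was 2-fold above both sham and Pre at 24 h, the 1 gene of the 40 outside the muscle list to meet both conditions, as did 1.23% of all genes. That it was 1 gene at 1 time depended on scaling: after it, Nfe2l2 was 1.997 and Bach1 1.89 above sham at 1 h, both also 2-fold above Pre, and Nfe2l2 stood at 0.89 and 1.37 relative to Pre at 3 h and 8 h. Prdx1, a peroxiredoxin, was at 1.64 at 3 h (1 probe) and 1.36 at 24 h (2 probes), against 0.80 in sham (2 probes), and was singled out after its values were seen. Its means at 3 h and in sham rest on different probes. Probe 6734, the one measured at 3 h, was already at 1.11 in sham and reached 1.52 at 24 h. Probe 12025 stood at 0.49 in sham and 1.21 at 24 h. Tkt, a pentose phosphate enzyme, had the lowest mean of those with all 5 paced values and lay between -0.36 and 0.09.

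Genes with the course most like Tfrc and Ftl1 were sought over the 6 arrays among the 3175 other genes with all values, by the root mean square difference of the log2 ratios. Both members were eligible because they were 2-fold from Pre or sham on at least 1 array. The nearest to Tfrc were Amd2, an S-adenosylmethionine decarboxylase of polyamine synthesis, at 0.20 (2 probes), Prkag3, which encodes a regulatory AMPK subunit, at 0.20 (1 probe), and Camk2a, a calcium-dependent kinase, at 0.21 (4 probes). Amd2 stood at -0.68 in sham, -1.25 at 0 h and -2.01 at 24 h, and Prkag3 at -0.21 in sham, -1.51 at 0 h and -1.35 at 24 h. These distances are smaller than the probe SD of Tfrc on every array where it has one except 1 h. Nearest to Ftl1 were the ribosomal protein gene Rpl13 at 0.09 (6 probes), the nuclear import receptor gene Ipo13 at 0.11 (3 probes) and the sphingomyelin synthase gene Sgms1 at 0.12 (1 probe). Rpl13 stood at 0.51 in sham, 0.18 at 1 h and 0.90 at 24 h. All 6 arrays share the Pre RNA.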

How the data were processed

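Total RNA from 6 muscle samples was compared with Pre on arrays with 2 channels. The authors deposited log10 ratios for 13872 probes, 1 value on each array. How spots were scanned and normalised is not given in the sources used here. The log10 base was read from the deposited values: 97 cells hold rounding residues, 47 of them within 1% of 9.64e-17, which a ratio of 1 gives in log10 when it is off by a single rounding unit. Zeros (within 1e-12) and values shared inside runs of 289 probes in ID order were set to missing, which touched 6 of 132 member values. Ratios were converted to log2 and centred on each array's median. The annotation names 1 gene for 6609 probes, while 284 have several symbols and 6979 have none. Names came from GRCm38.p6 gene IDs, which 6599 of the 6609 matched. Probes of a gene were averaged, and gene-wide shares cover the 3180 genes with a value on all 6 arrays.

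Each group had 1 array, so values stand without p-values, and the number of arrays limits precision. The comparison of 24 h with 1 h was added after the values were seen. Genes named beside the members were, from each list, those 2-fold from sham and Pre in 1 direction, the highest and lowest mean over paced arrays, and the 3 nearest courses. Members and lists were chosen with earlier results of these data known. The steps were run on simulated data with planted changes and noise smaller than the spread of any array here. That run checks the code and not how reliable the calls are. Python 3.11.15, pandas 2.3.3, numpy 2.4.6 and matplotlib 3.10.9 were used. Alternatives kept zeros, left out centring, scaled arrays to a common spread, centred runs of 289 probes, used probe medians, used shared probes or lowered the threshold.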

Additional observations from a re-analysis of the deposited data

How the results depend on the processing

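Of 330 member values recomputed under 6 alternatives, 318 stayed on their side of the 2-fold threshold, 8 lost the call, 4 gained it and 0 called values changed sign; 11 values that were not called changed sign. All changed calls were of Tfrc or Ftl1, and the cause was not tested. Counts of members called differed in 19 of 77 cases, in 18 of them by more than 1.5 times. With arrays scaled to a common spread, 1 member was called against sham at 0 h and at 1 h and 0 at 24 h, and against Pre 1, 0 and 1 at 1, 3 and 24 h. With probes measured on both arrays or on all 6, 1 was called against sham at 0 h, and against Pre 0 at 3 h and 0 at 24 h, where Tfrc stood at -0.86 and -0.997 on 1 probe. Keeping zeros gave 0 against Pre at 0 h, and probe medians gave 1 at 24 h. At a threshold of 1.5-fold, 1 was called against sham at 0 h, 1 h and 3 h and 2 at 24 h, and against Pre 1 in sham, 1 at 1 h, 2 at 8 h and 3 at 24 h. For 24 h against 1 h, the difference was 0.35 to 0.59 for Fth1 and 0.39 to 0.79 for Ftl1 over the alternatives, while Tfrc ranged from -0.67 to 0.43. No probe held a member symbol among several, so that alternative changed nothing and was not run. No replicate could be left out, and no paired analysis was possible because each group had 1 array. Without signal levels, how far a spot stood above background is unknown.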
